A study of Arabidopsis thaliana with 18 samples.

Results

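RNA levels in seedlings of the Arabidopsis thaliana mutant ceres-1 were set against those of the wild type Col-0. All genes with a ceres-1 over Col-0 value in the total RNA columns of the authors' deposited table were taken, 24142 of the 27628 genes listed, and they were described by gene families read from the table's own descriptions. Both lines are in the Col-0 ecotype, were grown under control conditions without a treatment, and were harvested as whole seedlings at 9 days of age and Zeitgeber time 5, which is 5 h after lights on. Of the 18 libraries in the series, 6 RNA libraries enter this comparison, 3 per genotype; a mutant of the same gene, ceres-2, and ribosome footprints (mRNA fragments protected by ribosomes) were sequenced beside them. The sources used here give neither the kind of mutation carried by ceres-1 nor the number of seedlings pooled per library.

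CERES is a plant protein that binds eIF4E, the initiation factor that holds the cap at the start of an mRNA and brings it to the ribosome. Proteins that bind eIF4E can aid or hinder the loading of ribosomes, so a mutant may show altered translation, altered transcript levels or both. Transcript levels alone are followed here, and they set the base against which any change in ribosome occupancy is read.

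Each gene has a log2 fold change, where 1 means a doubling relative to Col-0 and -1 a halving, and a p-value adjusted for the number of genes. Genes with an adjusted p below 0.05 are called. The table holds no value for a single library, so no spread between libraries, standard error or depth can be given, and the levels behind each fold change are unknown. Gene symbols are those of the reference annotation or of the table.

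The mutated gene itself had the lowest value of all genes. CERES (AT4G23840) had a log2 fold change of -4.43 in ceres-1 RNA per the authors' deposited table (adjusted p = 5.62e-08), a level 21.6-fold lower than in Col-0. The libraries labelled ceres-1 thus held little CERES RNA relative to Col-0. Its 3 neighbours on either side had values from -0.43 to 0.46 per the authors' deposited table, without a call.

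Besides CERES, 5 transcripts were called, so that the calls comprise 6 of 24142 genes (0.0249%), 3 higher (0.0124%) and 3 lower (0.0124%). The other lower transcripts were MRD1 and MBP1, and the higher ones were OXS3, AT3G15450 and MEE14. They belong to different gene families, and 2 of the 6, MBP1 and AT3G15450, fall into a family listed below.

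MRD1 (AT1G53480), named for its lowered transcript in a methionine-accumulating mutant, fell by 3.52 on the log2 scale in ceres-1 per the authors' deposited table (adjusted p = 1.53e-14), an 11.5-fold lower level. The footprint log2 fold change of MRD1 in ceres-1 was -3.44 per the authors' deposited table, without an adjusted p, and the RNA value in ceres-2 was -6.34 (adjusted p = 0.00214). RNA and footprints of ceres-1 lay about as far below Col-0 for this gene. HEI10 (AT1G53490), a neighbour that promotes crossovers in meiosis, was at -1.31 in RNA of ceres-1 per the authors' deposited table and was not called, and the other 5 genes around MRD1 lay between -0.29 and 0.29.

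MBP1 (AT1G52040) encodes a myrosinase-binding protein, a jacalin-type lectin that associates with the enzymes that cleave glucosinolates in the defence of cabbage relatives. It fell by 1.304 on the log2 scale in ceres-1 per the authors' deposited table (adjusted p = 0.0168), a 2.47-fold lower level. The footprint value of MBP1 in ceres-1 was likewise -1.304 per the authors' deposited table, without an adjusted p, whereas its RNA log2 fold change in ceres-2 was 0.10 (adjusted p = 0.9999). The alleles therefore lay apart for MBP1, but the difference between them was not tested. The adjacent gene of the same family, MBP2 (AT1G52030), was at -0.17 in RNA of ceres-1 per the authors' deposited table, and the 6 nearest genes lay between -0.32 and 1.002 with none called. The highest of them, AT1G51990, sits at a value that more than 100 genes share to the last digit, and the others lay between -0.32 and 0.20. Several of these neighbours are also lectins of this family, and the sources used here do not say how reads shared by close copies were counted. MBP1 and MRD1 both lie on chromosome 1. Of the 157 listed genes between them, 143 had a value, with a median of 0.03 and a range from -2.51 to 2.15 per the authors' deposited table, again without a call.

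OXS3 (AT5G56550), a nuclear protein linked to tolerance of oxidative and metal stress, rose by 1.77 on the log2 scale in ceres-1 per the authors' deposited table (adjusted p = 0.0135), a 3.42-fold higher level. Its footprint value was 1.26 per the authors' deposited table, without an adjusted p, and its RNA value in ceres-2 was 2.11 (adjusted p = 7.02e-05). OXS3 thus lay above Col-0 in all 3 of these comparisons, though RNA of both alleles was set against the same Col-0 libraries.

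AT3G15450, described as an aluminium-induced protein with YGL and LRDR motifs, rose by 1.13 on the log2 scale in ceres-1 per the authors' deposited table (adjusted p = 0.00139), a 2.19-fold higher level. It was also called in footprints of ceres-1, at 0.88 per the authors' deposited table (adjusted p = 9.08e-06). The RNA value of AT3G15450 in ceres-2 was 1.67 per the authors' deposited table and did not pass the test (adjusted p = 0.469).

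MEE14 (AT2G15890), a gene named for embryo arrest in its mutant, had the smallest called change, a rise of 0.77 on the log2 scale per the authors' deposited table (adjusted p = 0.0127), or 1.70-fold. Its footprints rose by 0.67 in ceres-1 per the authors' deposited table (adjusted p = 0.0168), and its RNA rose by 1.26 in ceres-2 (adjusted p = 2.91e-09). RNA of both alleles, set against the same Col-0 libraries, and footprints of ceres-1 were all called for MEE14.

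**Figure D1:**
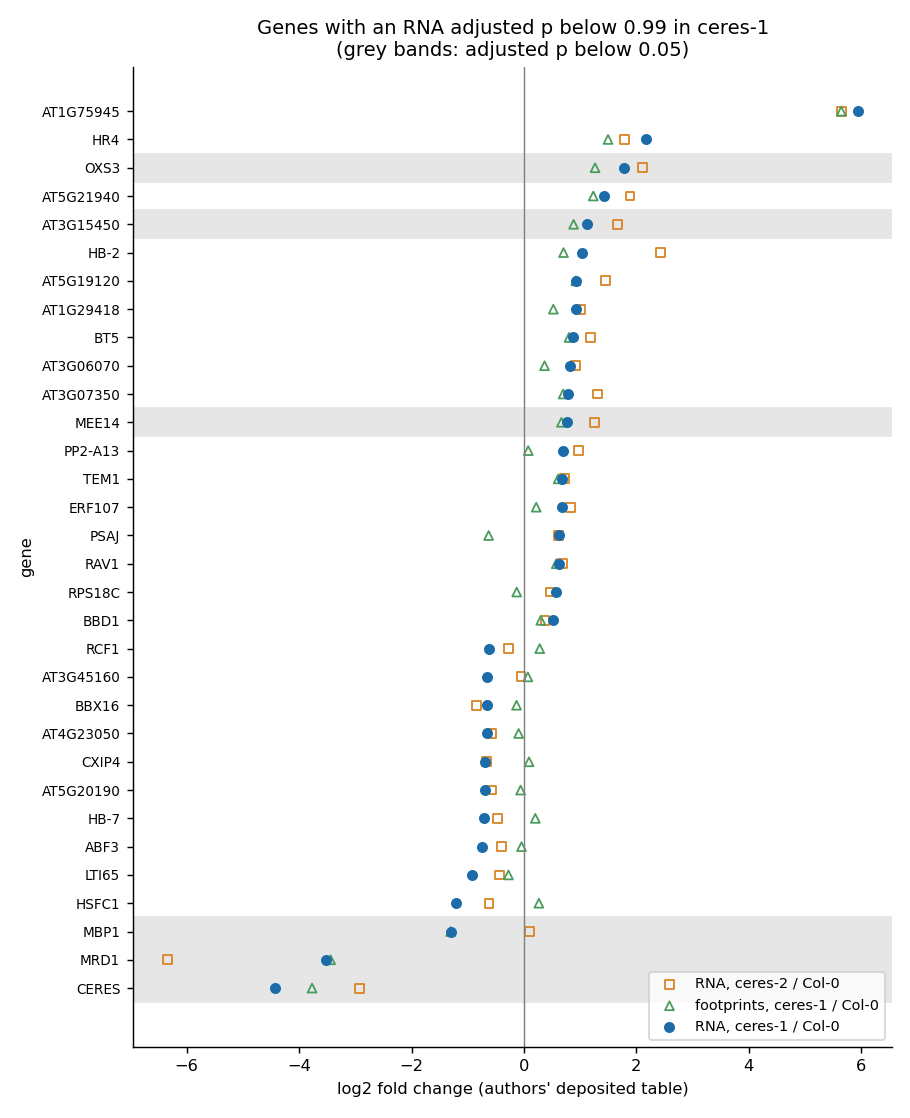
RNA log2 fold change in ceres-1 (filled circles), RNA log2 fold change in ceres-2 (squares) and footprint log2 fold change in ceres-1 (triangles), each over Col-0 and as deposited by the authors, for the 32 genes with an RNA adjusted p below 0.99 in ceres-1. Grey bands mark the 6 called genes. RNA values of both alleles share the same Col-0 libraries. MBP1 lies at -1.304 in RNA and footprints of ceres-1 and at 0.10 in RNA of ceres-2.

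Beyond the calls, adjusted p-values give little order to the genes. They stand at 0.99 or above for 24110 genes, and only 32 genes lie below, 19 higher and 13 lower, the 6 called ones included. The other 26 had adjusted p-values from 0.0514 to 0.772 per the authors' deposited table. They are named here for their values and are not changes by the test.

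Among the 16 of these genes that lay above Col-0, AT1G75945, described as a hypothetical protein, had the highest RNA value of all genes, 5.94 per the authors' deposited table (adjusted p = 0.0514). The aspartyl protease AT5G19120 was at 0.93 in RNA (adjusted p = 0.0514) and at 0.92 in footprints of ceres-1 per the authors' deposited table, where the footprint value was called (adjusted p = 7.27e-05). HB-2 (ATHB2, AT4G16780), a homeodomain-leucine zipper factor induced by shade, was at 1.03 in RNA of ceres-1 per the authors' deposited table (adjusted p = 0.188). HR4 (AT3G50480), a homolog of the broad mildew resistance protein RPW8, was at 2.17 per the authors' deposited table (adjusted p = 0.249). Both TEM1 (AT1G25560) and RAV1 (AT1G13260), related AP2/B3 repressors that delay flowering or growth, belong here. TEM1 was at 0.68 (adjusted p = 0.338) and RAV1 at 0.63 (adjusted p = 0.638) per the authors' deposited table. The wax biosynthesis repressor ERF107 (DEWAX, AT5G61590) was at 0.68 (adjusted p = 0.309) and BT5 (AT4G37610), a protein with BTB and TAZ domains, at 0.87 (adjusted p = 0.680) per the authors' deposited table. Of the 16, 8 were called in RNA of ceres-2, which was compared with the same Col-0 libraries and where 0.137% of all tested genes were called. In footprints of ceres-1, where 0.642% of the members tested were called, the 16 held 3 calls. AT1G75945, HR4, AT1G29418, PP2-A13 (AT3G61060) and BT5 had no adjusted p there and could not be called. The footprint values of AT5G19120 and AT3G07350, a DUF506 protein, were called higher, and that of PSAJ (ATCG00630), a plastid-encoded subunit of photosystem I, was called lower although its RNA value lay above 0.

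Of the 10 genes of this kind below Col-0, ABF3 (AT4G34000), a bZIP factor of the response to the drought hormone abscisic acid, was at -0.74 per the authors' deposited table (adjusted p = 0.346). HB-7 (AT2G46680), a homeodomain factor induced by abscisic acid and drought, was at -0.70 (adjusted p = 0.249) and LTI65 (AT5G52300), a protein induced by cold and drought, at -0.92 (adjusted p = 0.422) per the authors' deposited table. The heat stress factor HSFC1 (AT3G24520) was at -1.21 (adjusted p = 0.309) and the B-box factor BBX16 (AT1G73870) at -0.66 (adjusted p = 0.632) per the authors' deposited table. RCF1 (AT1G20920), a DEAD-box RNA helicase needed for splicing in the cold, was at -0.62 per the authors' deposited table (adjusted p = 0.639). The footprint value lay below 0 for 5 of the 10 and above 0 for the others, none was called in footprints, and 1, BBX16, was called in RNA of ceres-2. The coding sequences of 8 of the 10, ABF3, HB-7, LTI65, HSFC1, BBX16 and RCF1 among them, fell in the 10% of nuclear genes richest in purines, a property taken up further on.

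The spread of RNA values differed between 2 kinds of genes. The authors' deposited table gives an adjusted p for translational efficiency (footprints relative to RNA) for 12120 of the members, and the sources used here do not say by what rule. In these 12120 genes the median RNA log2 fold change was 0.00 with an SD across genes of 0.208, and 98.7% lay within 1.5-fold of Col-0. The other 12022 genes had a median of -0.01 and an SD across genes of 0.767, and 66.7% lay within 1.5-fold. Over all members 1929 (7.99%) were at least 1.5-fold higher and 2235 (9.26%) at least 1.5-fold lower, against 63 (0.52%) and 100 (0.825%) of the 12120. At 2-fold, 9 (0.0743%) of the 12120 were higher and 7 (0.0578%) lower.

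Many of the wide values are shared by many genes to the last digit. The authors' deposited table has 6 values that were each held by 133 to 201 genes, 986 in all. The 3 such values above 0 lay between 0.983 and 1.002 and the 3 below 0 between -0.79 and -0.77. Values held by at least 10 genes covered 1548 genes, 620 of those at least 1.5-fold higher and 673 of those at least 1.5-fold lower, and 1 of the 1548 had an efficiency adjusted p. For that reason the families below are given over all their members, and also over those with an efficiency adjusted p (efficiency p from here on) where the 2 medians differ by over 0.05. Genes without an efficiency p can still have values in both assays, as CERES, MRD1 and OXS3 do.

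**Figure D2:**
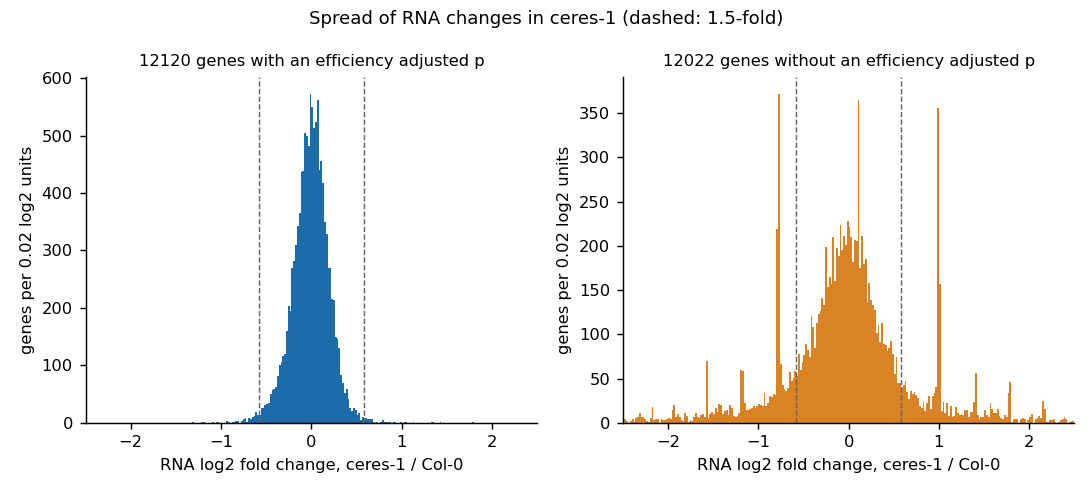
Histograms of the RNA log2 fold change in ceres-1 over Col-0 (x axis, log2 units; values beyond 2.5 are not drawn) for the 12120 genes with an efficiency adjusted p and the 12022 without one; the y axes, which differ in scale, give genes per 0.02 log2 units, and dashed lines mark 1.5-fold. In the right panel narrow spikes stand near -0.78 and 0.99, at the values that 133 to 201 genes share.

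Among genes with an efficiency p, the largest RNA values were spread over unrelated families. The hypothetical protein AT3G30320 was highest, at 1.79 per the authors' deposited table, and its footprints were called at 6.68 (adjusted p = 0.0224). AT5G21940, described as a protein like a hybrid histidine kinase, was at 1.42 in RNA of ceres-1 per the authors' deposited table, was not called there (adjusted p = 0.309) and was called in RNA of ceres-2 at 1.89 (adjusted p = 1.04e-13). Lowest after MBP1 and HSFC1 were SHP1 (AT3G58780), a MADS factor of fruit opening, at -1.18, and FP3 (AT5G63530), a farnesylated metal-binding protein, at -1.09 per the authors' deposited table. HLN (AT4G17520), an RNA-binding protein, was at -1.05 and PDP3 (AT5G40340), a protein with a PWWP domain, at -1.03 per the authors' deposited table. Footprints of these 4 genes lay between 0.01 and 0.99 per the authors' deposited table, so their RNA and footprint values did not lie on the same side of Col-0.

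Descriptions matched 74 gene families that hold 5337 of the members, with some genes in several families and some matched only because their description mentions the family. Across all 74 families 2 memberships were called, a count to be read against the 0.0249% called over all genes. The lowest and highest members named below are those among the genes with an efficiency p. No family was tested as a group, and medians were compared with that of all members, 0.00. In whole seedlings fewer cells of a type and less RNA per cell cannot be told apart. Of the 73 families with at least 5 members with an efficiency p, medians over those members ran from -0.25 to 0.32, with 13 families below -0.1 and 8 above 0.1.

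Some families that act on RNA and chromatin had medians below 0. Splicing factors and SR proteins, which remove introns and choose splice sites, had a median of -0.17 over 81 members, and of the 61 with an efficiency p 51 lay below 0 and 10 above. Of all 12120 genes with an efficiency p, 49.9% lay above 0. The lowest splicing members were AT2G44200 at -0.83 and AT4G36980, a serine/arginine-rich protein, at -0.77, and the highest was AT4G14342 at 0.29 per the authors' deposited table. Glycine-rich proteins, many of them RNA-binding, had a median of -0.16 over 68 members, and 30 of 36 with an efficiency p lay below 0. The RNA-binding zinc finger proteins AtRZ-1c (AT5G04280) and AtRZ-1b (AT1G60650), which act in splicing, were at -0.77 and -0.62 per the authors' deposited table. Bromodomain proteins, readers of acetylated histones, had a median of -0.18 over 25 members and of -0.24 over the 16 with an efficiency p, 14 of them below 0 and the lowest, AT2G44430, at -0.81 per the authors' deposited table. Histones had a median of -0.13 over 42 members, and 25 of the 33 with an efficiency p lay below 0. None of the members of these 4 families was called.

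The median footprint value of the splicing factors with an efficiency p was 0.05, that of the glycine-rich proteins 0.06 and that of the histones 0.09. Bromodomain proteins were at -0.08 in footprints. For these families RNA and footprints did not share the low values, apart from the bromodomain proteins, whose medians lay below 0 in both.

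Other RNA-related families lay closer to 0 over genes with an efficiency p. Pentatricopeptide repeat proteins, which process organelle RNA, had a median of -0.13 over 292 members, like that of the histones. Over their 59 members with an efficiency p the median was -0.07, and emb1796 (AT3G49240) was lowest at -0.69 per the authors' deposited table. DEAD-box helicases had a median of -0.06 over 48 members, and nucleolar proteins one of -0.07 over 48. The nucleolin-like AT1G47970 was at -0.81 per the authors' deposited table.

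The translation machinery, on which CERES acts, lay near 0 in RNA. Ribosomal proteins had a median of 0.03 over 341 members, with 6 at least 1.5-fold higher, 11 at least 1.5-fold lower and none called. The highest among the 290 with an efficiency p was RPS18C (AT4G09800) at 0.58 and the lowest AT4G39880 at -0.60 per the authors' deposited table. Translation initiation factors had a median of -0.03 over 64 members, elongation factors 0.04 over 28, and aminoacyl-tRNA synthetases, which charge tRNAs, 0.01 over 61. Among initiation factors EIF4B1 (AT3G26400), a cofactor of the cap-binding complex, was at -0.41 and EIF2 (AT2G39990) was highest at 0.53 per the authors' deposited table; despite its symbol AT2G39990 encodes a subunit of eIF3.

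Families of stress and defence were mixed. Late embryogenesis abundant proteins, which protect drying cells, had the lowest median, -0.30 over 37 members, with 14 at least 1.5-fold lower and 5 at least 1.5-fold higher. Only 8 of them had an efficiency p, with a median of -0.25. LEA7 (AT1G52690) was at -0.74 and ABR (AT3G02480) at 0.11 per the authors' deposited table. NBS-LRR disease resistance proteins, the intracellular immune receptors of plants, had a median of -0.16 over 139 members, and 46 of 52 with an efficiency p lay below 0. Their lowest and highest values among those 52 were -0.41, for AT4G16900, and 0.19, for AT5G36930, per the authors' deposited table, so none of the 52 lay 1.5-fold away. The sources used here do not say how reads were split among close copies of such receptors. Their median footprint value was 0.10.

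Heat shock proteins of the HSP20, HSP70, HSP90 and HSP101 classes are chaperones that hold or refold proteins. Genes whose descriptions matched these classes had a median of -0.11 over 69 members, and 23 of the 29 with an efficiency p lay below 0. The lowest were ATHSPR (AT4G29920) at -0.56 and SMXL5 (AT5G57130) at -0.39, matched by description, and then HSP70 (AT3G12580) at -0.31 per the authors' deposited table. The highest was ACD32.1 (AT1G06460) at 0.33. The heat stress factors that regulate heat shock proteins had a median of -0.21 over 16 members, 4 of which were at least 1.5-fold lower, and of -0.11 over the 5 with an efficiency p. Flavonoid and anthocyanin genes had a median of -0.11 over 58 members. Of the 34 with an efficiency p, 11 lay above 0 and 23 below, with KFB (AT1G23390) highest at 0.36 per the authors' deposited table. Among these, AT4G14090, an anthocyanin glucosyltransferase, was at -0.66, LDOX (AT4G22880), which forms anthocyanidins, at -0.57 and TT5 (AT3G55120), chalcone isomerase, at -0.47 per the authors' deposited table. TT4 (AT5G13930), chalcone synthase, was at -0.33 in RNA and was called in footprints of ceres-1 at -0.64 per the authors' deposited table (adjusted p = 0.0168).

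Jacalin and mannose-binding lectins, the family of MBP1, had a median of -0.09 over 46 members, with 10 at least 1.5-fold lower and 6 at least 1.5-fold higher. Of the 14 with an efficiency p, 6 lay above 0 and 8 below, and after MBP1 the lowest was AT1G52100 at -0.27 per the authors' deposited table. Myrosinases and glucosinolate genes, partners of these lectins, had a median of 0.02 over 52 members. TGG2 (AT5G25980), a myrosinase, was at 0.21 and the nitrile-specifier NSP5 (AT5G48180) at -0.50 per the authors' deposited table. None of the myrosinase and glucosinolate genes was called.

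**Figure D3:**
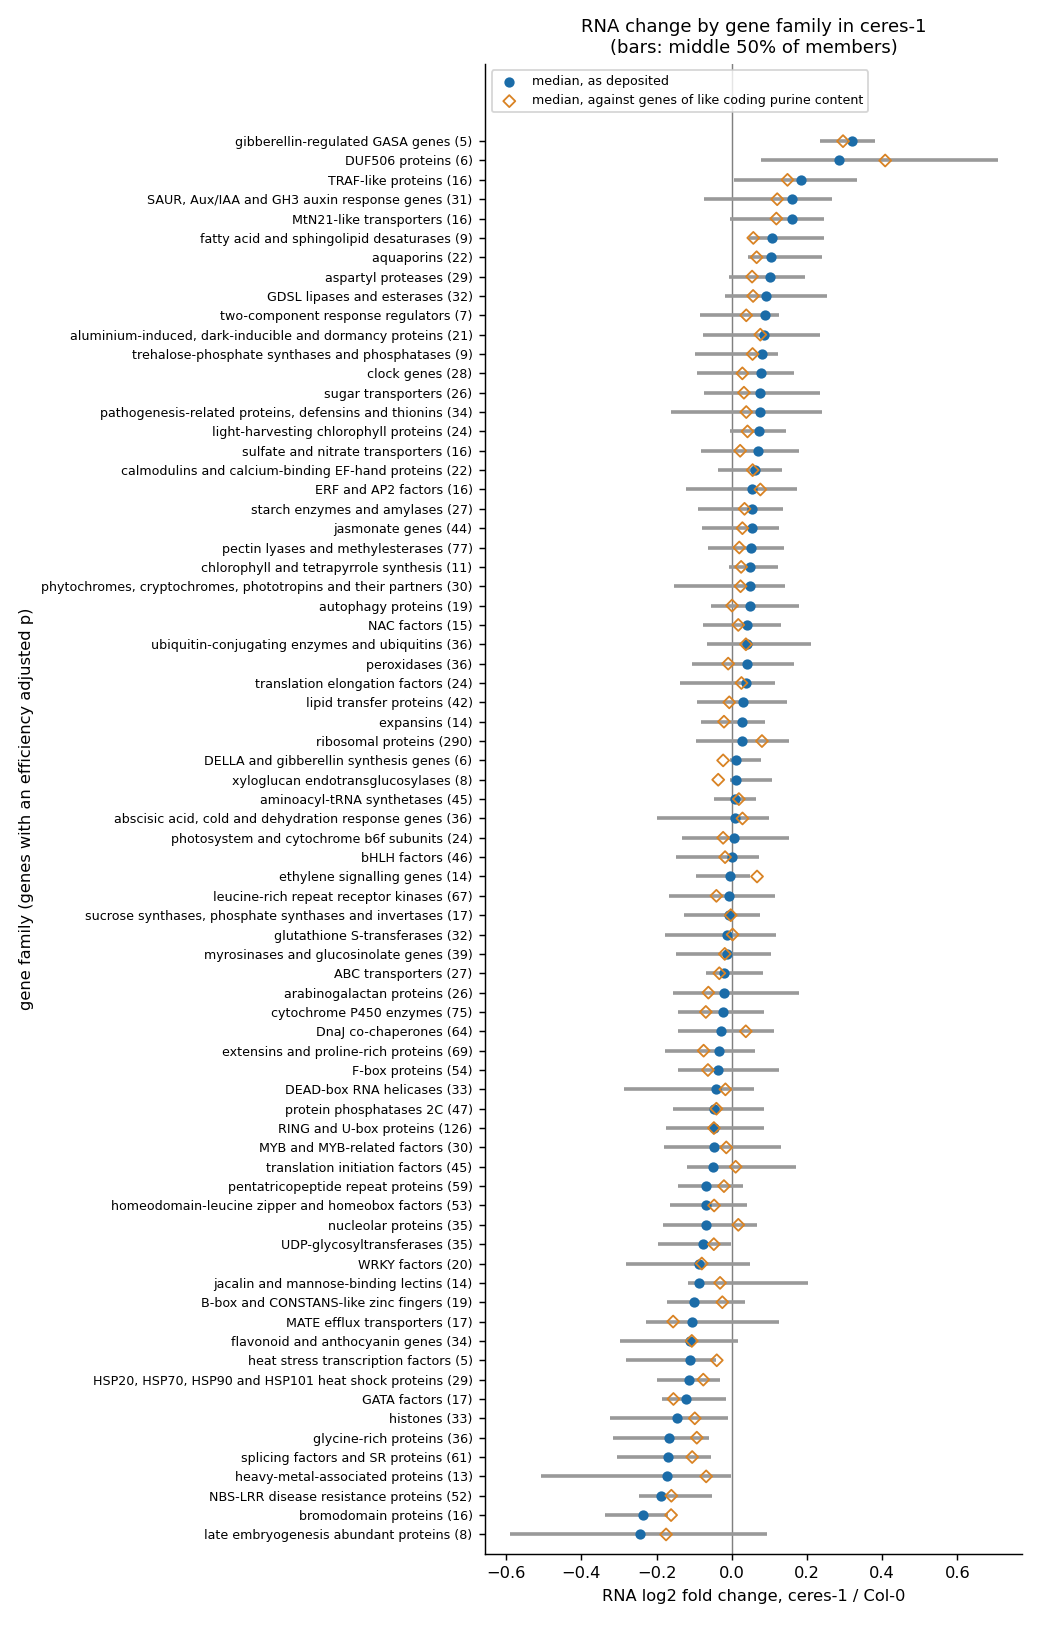
Median RNA log2 fold change in ceres-1 over Col-0 of the genes with an efficiency p in each of 73 gene families (circles; number of genes in brackets), with bars from the lower to the upper quartile of members. Open diamonds give the median after each gene is set against the median of nuclear genes in the same 10% bin of coding purine content. Medians run from -0.25 for late embryogenesis abundant proteins to 0.32 for GASA genes.

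The 8 families with a median above 0.1 over genes with an efficiency p were of several kinds. TRAF-like proteins, which carry a domain for contacts between proteins, had the highest median over all members, 0.25 over 53, and one of 0.18 over the 16 with an efficiency p. Of the 53 TRAF-like proteins 11 were at least 1.5-fold higher and 7 at least 1.5-fold lower, 5 and 4 of them at shared values. AT4G00780 was highest among the 16, at 0.54, and AT2G25320 lowest, at -0.24, per the authors' deposited table. MtN21-like transporters, which include amino acid exporters, had a median of 0.07 over 39 members and of 0.16 over the 16 with an efficiency p. Fatty acid and sphingolipid desaturases had one of 0.11 over 19 members and aspartyl proteases one of 0.10 over 56, and aquaporins and DUF506 proteins are described further on. GASA genes, small secreted peptides regulated by gibberellin, had a median of 0.20 over 12 members and of 0.32 over the 5 with an efficiency p. All 5 lay above 0, from 0.20 for GASA1 (AT1G75750) to 0.41 for AT1G22690 per the authors' deposited table. Outside those 5, however, 4 members were at least 1.5-fold lower, 2 of them at shared values. Auxin response genes of the SAUR, Aux/IAA and GH3 classes had a median of 0.09 over 101 members and of 0.16 over the 31 with an efficiency p. SAUR20 (AT5G18020) was at 0.66 and SAUR65 (AT1G29460) at 0.42, while GH3.9 (AT2G47750) was at -0.31 per the authors' deposited table. PAR1 (AT2G42870) and HFR1 (AT1G02340), helix-loop-helix proteins induced by shade that restrain elongation, were at 0.40 and 0.58 per the authors' deposited table.

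Abscisic acid, cold and dehydration genes had a median of -0.06 over 106 members, with 19 at least 1.5-fold lower and 6 at least 1.5-fold higher, but of 0.01 over the 36 with an efficiency p. Of these 36, 19 lay above 0 and 17 below, from -0.74 for ABF3 to 0.63 for RAV1 per the authors' deposited table. None of the 106 was called. The phosphatases HAB1 (AT1G72770), PP2CA (AT3G11410) and ABI2 (AT5G57050), which block abscisic acid signalling and whose genes respond to the hormone, were the lowest protein phosphatases 2C. They were at -0.61, -0.49 and -0.41 per the authors' deposited table. Protein phosphatases 2C as a family had a median of -0.05 over 79 members, and none was called. Of the 47 with an efficiency p, 19 lay above 0 and 28 below. Jasmonate genes had a median of 0.05 over 61 members, ethylene signalling genes -0.01 over 26 and response regulators of the cytokinin pathway and their relatives 0.12 over 15.

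Genes tied to darkness and sugar starvation had values on both sides of Col-0. Proteins described as aluminium-induced, dark-inducible or dormancy-associated had a median of 0.05 over 34 members, with AT3G15450 as their call. Its relative AT4G27450 was at 0.59 and DRM2 (AT2G33830) at 0.49 per the authors' deposited table, whereas GER5 (AT5G13200) was at -0.42. DUF506 proteins had a median of -0.07 over 13 members but of 0.28 over the 6 with an efficiency p. AT3G07350 was at 0.79, AT2G20670 at 0.78 and AT4G32480 at 0.49 per the authors' deposited table, and AT3G22970 at -0.07. The BTB and TAZ proteins BT5, BT4 (AT5G67480) and BT1 (AT5G63160) were at 0.87, 0.26 and 0.18 per the authors' deposited table. Autophagy proteins had a median of 0.02 over 26 members.

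Families of photosynthesis encoded in the nucleus differed little from Col-0. Light-harvesting chlorophyll proteins had a median of 0.07 over 24 members, of which 18 lay above 0, and none was 1.5-fold away. LHCB4.2 (AT3G08940) was highest at 0.37 and CAO (AT2G47450), a protein that delivers light-harvesting proteins to the thylakoid, lowest at -0.55 per the authors' deposited table. Photosystem and cytochrome b6f subunits had a median of -0.01 over 25 members and chlorophyll synthesis genes one of 0.07 over 12. Clock genes, whose transcripts cycle over the day, had a median of 0.09 over 41 members. RAV1, also matched here, was highest at 0.63 per the authors' deposited table. RVE6 (AT5G52660), a morning MYB factor, was at -0.46 and PRR7 (AT5G02810), a repressor of morning genes, at -0.43 per the authors' deposited table. Photoreceptors and their partners had a median of 0.06 over 35 members. BIC2 (AT3G44450), an inhibitor of cryptochromes, was at -0.50 and HFR1, the highest, at 0.58 per the authors' deposited table.

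Among families of transport and the cell wall, aquaporins, the water channels, had a median of 0.10 over 30 members, and 18 of 22 with an efficiency p lay above 0. TIP2;3 (AT5G47450) was at 0.36 and PIP2;4 (AT5G60660) at 0.34 per the authors' deposited table. Sugar transporters had a median of 0.13 over 55 members and of 0.08 over the 26 with an efficiency p, with VGT1 (AT3G03090), a vacuolar glucose transporter, at 0.58 and SAG29 (AT5G13170), a sucrose carrier of the SWEET type, at -0.43 per the authors' deposited table. SAG29 was called in footprints of ceres-1 at -0.78 per the authors' deposited table (adjusted p = 0.00137). Expansins, which loosen cell walls, had a median of 0.01 over 29 members and extensins and proline-rich proteins -0.07 over 181. PRP1 (AT1G54970), a proline-rich protein of roots, was at -0.82 in RNA and at -0.69 in footprints per the authors' deposited table.

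Some large families held many of the shared values. F-box proteins, which pick targets for degradation, had 81 members at least 1.5-fold higher (22.7%) and 87 at least 1.5-fold lower (24.4%) of 357. Of these, 43 and 52 sat at values that at least 10 genes share, and in the 54 with an efficiency p the F-box values ran from -0.57 to 0.61. Pathogenesis-related proteins, defensins and thionins had a median of 0.16 over 120 members, with 35 at least 1.5-fold higher and 18 lower, 13 and 12 of them at shared values. Their median over the 34 with an efficiency p was 0.07.

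Plastid-encoded transcripts lay mostly above Col-0. All 88 had an efficiency p, with a median of 0.20, 71 above 0, 13 at least 1.5-fold higher, none 1.5-fold lower and none called. Of all 12120 genes with an efficiency p, 49.9% lay above 0, 0.52% were at least 1.5-fold higher and 0.825% at least 1.5-fold lower. These higher genes numbered 63, of which 48 were nuclear. Only 0.0249% of all members were called, so that no call among 88 is near that share. Genes of the cytochrome b6f complex (pet) had a median of 0.48 over 4 and those of the NADH dehydrogenase-like complex (ndh) 0.40 over 12, against 0.03 for 25 plastid ribosomal protein genes and 0.00 for 4 RNA polymerase genes. The highest was PSBN (ATCG00700), at 1.35 per the authors' deposited table, and the lowest RPS12A (ATCG00065), at -0.56. PSAJ was at 0.63 in RNA (adjusted p = 0.547) and was called in footprints at -0.63 (adjusted p = 0.00557) per the authors' deposited table. The median footprint value of the 88 genes was -0.07, and their median RNA value in ceres-2, against the same Col-0 libraries, was 0.26. Mitochondrion-encoded transcripts had a median of 0.07 in RNA over 118 genes, with 15 at least 1.5-fold higher and 15 lower, and of 0.95 in footprints. Of all members 7.99% were at least 1.5-fold higher in RNA and 9.26% at least 1.5-fold lower. Over the 53 mitochondrial genes with an efficiency p the medians were 0.15 in RNA and 0.77 in footprints. Of these 53 genes, 2 were at least 1.5-fold higher in RNA and 0 lower.

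**Figure D4:**
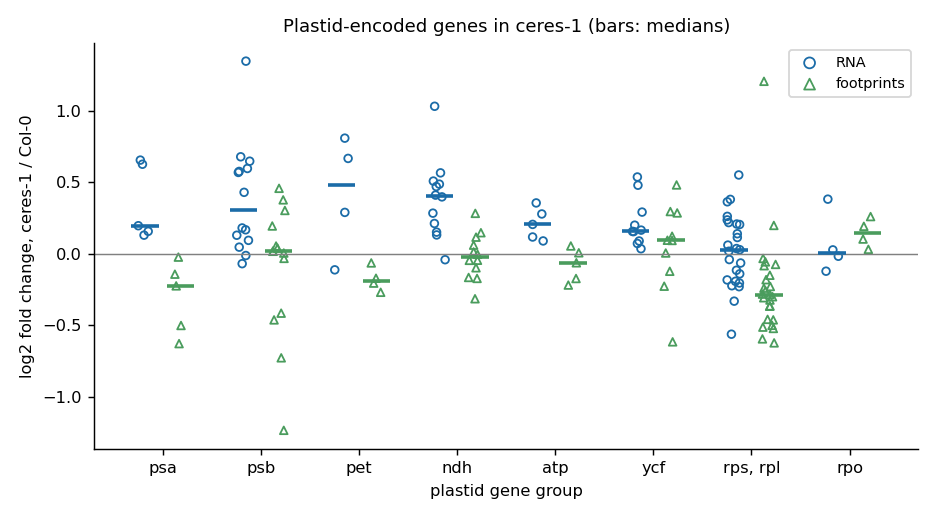
Log2 fold change in ceres-1 over Col-0 of plastid-encoded genes by gene group, in RNA (circles) and footprints (triangles), 1 point per gene with bars at the medians. RNA medians are 0.20 for psa, 0.30 for psb, 0.48 for pet and 0.40 for ndh, and 0.03 for ribosomal protein genes.

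RNA values in ceres-1 varied with the base composition of the coding sequence. Purine content is the share of A and G in the coding strand, taken from the longest annotated coding sequence in the reference for 11979 nuclear genes with an efficiency p. The median RNA log2 fold change was 0.04 in the 10% of genes with the lowest purine content, 0.05 in each of the next 3 bins of 10%, and -0.18 in the 10% with the highest. Across these genes Spearman's rho of purine content was -0.29 with the RNA value and 0.29 with the footprint value of ceres-1. Genes are not independent replicates, and all values share the same libraries. Coding GC content and coding length showed weaker relations with RNA, with a rho of -0.09 each. The RNA values of ceres-2 over the same Col-0 libraries gave a rho of -0.41 with purine content.

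Of the 100 nuclear genes with an efficiency p that were at least 1.5-fold lower, 65 belonged to the purine-richest 10%, and their median purine content was 60.1% against 52.4% for all. Their median RNA log2 fold change was -0.67, their median footprint value was 0.10, and 67 of them lay above 0 in footprints. The 48 genes at least 1.5-fold higher had a median purine content of 49.9% and a median footprint value of 0.32, and 17 of them were also at least 1.5-fold higher in footprints. Of the 100 lower genes 3 were at least 1.5-fold lower in footprints. The median footprint value was 0.10 in the purine-richest 10% and 0.00 over all 11979 genes. How many of all 11979 genes passed these footprint limits was not counted, so the overlaps are a description only. When each gene was set against the median of its purine bin, 47 genes were at least 1.5-fold lower and 44 at least 1.5-fold higher, in place of 100 and 48. Of the 100 lower genes 40 remained, and of the 48 higher ones 37. The purine-richest bin spans 57.2% to 81.1% purines, and all its genes were set against 1 median, -0.18. Differences in purine content within a bin are therefore not removed by this step. HLN and PDP3 have purine contents of 63.6% and 65.3%, and AT1G56660, at -0.94 per the authors' deposited table, has 81.1%. The part of base composition in these low values was not tested.

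**Figure D5:**
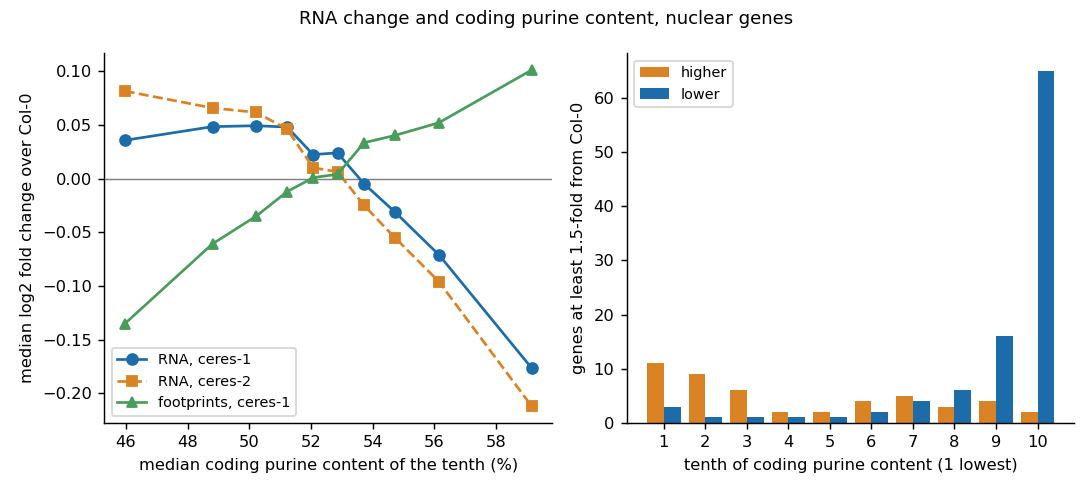
Left, the median log2 fold change over Col-0 of 11979 nuclear genes with an efficiency p, in 10 bins of coding purine content (x axis, median percent per bin), for RNA of ceres-1, RNA of ceres-2 and footprints of ceres-1. Right, how many genes of each bin were at least 1.5-fold higher or lower in RNA of ceres-1. The purine-richest 10% has a median RNA value of -0.18 and holds 65 of the 100 lower genes.

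Set against genes of the same purine bin, 11 of the 13 family medians below -0.1 and 7 of the 8 above 0.1 moved towards 0, and the others moved away. Among genes with an efficiency p, the median of late embryogenesis abundant proteins changed from -0.25 to -0.17, that of bromodomain proteins from -0.24 to -0.16 and that of NBS-LRR proteins from -0.19 to -0.16. Heavy-metal-associated proteins, the family of FP3, went from -0.17 to -0.07 over 13 genes, and their median over all 46 members was -0.07 without this step. Splicing factors went from -0.17 to -0.11, glycine-rich proteins from -0.17 to -0.09, histones from -0.15 to -0.10 and heat stress factors from -0.11 to -0.04. Away from 0 went GATA factors, from -0.12 to -0.16, and MATE efflux transporters, from -0.11 to -0.16. GASA genes went from 0.32 to 0.30, TRAF-like proteins from 0.18 to 0.15 and sugar transporters from 0.08 to 0.03, whereas DUF506 proteins went from 0.28 to 0.41. MBP1 was at -1.27 and AT3G15450 at 1.08 after the same step. This adjustment was chosen after the data were seen, and it leaves differences in purine content within a bin in place.

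RNA and footprint values of ceres-1 had little relation across genes. Pearson's r was 0.01 over the 11979 nuclear genes with an efficiency p, with the points sharing base composition as above but coming from separate libraries. Footprints were called for 64 of the 9967 members that carry an adjusted p there (0.642%). The 35 called higher had a median RNA value of 0.31, with 25 above 0, 9 at least 1.5-fold higher and 2 called. Over all genes 7.99% were at least 1.5-fold higher and 0.0249% called. Among genes with an efficiency p 0.52% were at least 1.5-fold higher, and the share among the 9967 was not counted. HSPRO2 (AT2G40000), a basal resistance protein, was at 0.74 and TCH3 (AT2G41100), a touch-induced calmodulin-like protein, at 0.77 in RNA per the authors' deposited table. The dark-induced genes ASN1 (AT3G47340), an asparagine synthetase, SEN1 (AT4G35770) and DIN10 (AT5G20250) were at 0.46, 0.45 and 0.31 in RNA per the authors' deposited table.

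The 29 genes called lower in footprints had a median RNA value of 0.07, with 12 below 0, none at least 1.5-fold lower and none called. Of genes with an efficiency p 0.825% were at least 1.5-fold lower, and 0.0249% of all genes were called, so none among 29 is near these shares. The plastid genes PSAJ and PSBI (ATCG00080) were at least 1.5-fold higher in RNA, at 0.63 and 0.60 per the authors' deposited table. FAD2 (AT3G12120), a desaturase of membrane lipids, was at -0.98 in footprints (adjusted p = 2.37e-05) and at 0.12 in RNA per the authors' deposited table. ALB3 (AT2G28800), which inserts proteins into the thylakoid, was at -0.45 in footprints (adjusted p = 0.0300) and at 0.18 in RNA per the authors' deposited table. PIF4 (AT2G43010), a factor that promotes elongation in shade and warmth, was at -0.56 in footprints (adjusted p = 0.0256) and at -0.22 in RNA per the authors' deposited table. SAG29 had the lowest RNA value of the 29 genes, -0.43.

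Genes called in RNA of ceres-2, 26 of 19000 tested (0.137%), are given here with their ceres-1 values as a description only. Both alleles were compared with the same Col-0 libraries, which can move both values the same way, and the genes were chosen for their ceres-2 values. The 22 higher ones had a median RNA value of 0.73 in ceres-1, where the median of all members was 0.00. The auxin synthesis genes YUC5 (AT5G43890), YUC8 (AT4G28720) and YUC9 (AT1G04180) were at 1.91, 1.07 and 0.13 in ceres-1 per the authors' deposited table, with adjusted p-values of 0.9998 each. NCED3 (AT3G14440), which sets the rate of abscisic acid synthesis, was at 0.42 in ceres-1 and 0.98 in ceres-2 per the authors' deposited table. AT3G01345 was at -0.25 in ceres-1 and 5.77 in ceres-2 per the authors' deposited table, and this difference was not tested. The 4 lower ones in ceres-2 were CERES, MRD1, BBX16 and AT1G64500, the last at -0.65 in ceres-1 per the authors' deposited table.

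Markers of seedling tissues showed no call in ceres-1, a count to be read against the 0.0249% called over all genes. The 3 leaf markers lay between -0.03 and 0.08, with LHCB1.3 (AT1G29930) at 0.05 per the authors' deposited table. The 4 root hair markers lay between -0.21 and 0.43, the 3 other root markers between -0.20 and 0.26 and the 3 vascular markers between -0.09 and 0.35. The guard cell markers FAMA (AT3G24140) and MYB60 (AT1G08810) were at -0.21 and -0.30 per the authors' deposited table. Seed markers were spread widest, from -0.91 for the oil body protein OLEO1 (AT4G25140) to 1.40 for EM1 (AT3G51810) per the authors' deposited table. EM1 shared its value with 31 other genes, and the shoot apex marker CLV3 (AT2G27250), at -0.77, shared its value with 152. CRA1 (AT5G44120) and CRU3 (AT4G28520), seed storage proteins, were at -0.09 and -0.04 per the authors' deposited table. The part of tissue make-up in the values above was not tested.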

How the data were processed

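RNA was compared in 6 libraries, 3 of ceres-1 and 3 of Col-0, grouped by their labels. The labels do not say whether replicates came from separate cultures, so p-values may cover technical spread alone. The libraries came from a TruSeq ribosome profiling kit per the labels' protocols. Alignment used TopHat2 2.1.0, counting featureCounts 1.6.2 and testing DESeq2, as the submitters' processing notes list them. The sources used here do not give the genome build, annotation release, strand setting, treatment of multiply mapped reads or shrinkage. Per the file headers the authors deposited log2 fold changes and adjusted p-values for each comparison, with no value per library. Depth is therefore unknown, no count model was fitted, and the authors' adjusted p-values were used at 0.05.

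Families were matched by words in the deposited descriptions, nuclear genes only; descriptions of 1344 members were not used here. Members and lists were chosen with earlier results of these data known. Named genes are CERES, called genes, the 30 smallest adjusted p-values, the 3 highest and lowest per family and the 10 highest and lowest overall among genes with an efficiency adjusted p, genes called in ceres-2 RNA or ceres-1 footprints, tissue markers and neighbours of called genes. Symbols come from the authors' table or the NCBI RefSeq table of TAIR10.1, which matched 27420 of 27628 identifiers and otherwise served for gene order and coding composition only. Python 3.11.15 and pandas 2.3.3 were used, and of the steps only the setting of genes against their purine bin was tested on simulated data.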

Additional observations from a re-analysis of the deposited data

How the results depend on the processing

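No paired analysis was possible because single libraries have no values here. For the same reason leaving out each replicate, a replicate block and refits with edgeR or DESeq2 were not run. Of the 3 genes called higher, 1 remained at an adjusted p below 0.01 and 5 were called at 0.1, while all 3 passed 1.5-fold. Of the 3 called lower, 2 passed 0.01, and all 3 passed 0.1 and 1.5-fold. Restricted to genes with a footprint adjusted p, 2 calls higher and 0 lower remained, since CERES, MRD1 and MBP1 have none. Over all members 9 family medians lay above 0.1 and 11 below -0.1. Genes with an efficiency adjusted p gave 8 and 13, and the same genes set against genes of like purine content, an alternative chosen after seeing the data, gave 5 and 7. Of 73 family medians, 3 moved by over 0.1 and 11 changed sign when only genes with an efficiency adjusted p were kept, all without a test. Families whose share of members at least 1.5-fold higher exceeded that of all genes numbered 31, 29 at 2-fold and 14 among genes with an efficiency adjusted p, where fewer genes enter. For the lower direction these counts were 30, 28 and 21. Every member with a fold change also has an adjusted p, so that taking all genes with a value changes nothing. Depth limits cannot be stated, and a gene that was not called is not shown to be unchanged.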
